A study of Mus musculus with 154 samples.

Results

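The 42 genes described here encode the stress sensors, chaperones, disulfide isomerases, degradation factors, translocon subunits and COPII coat subunits of the endoplasmic reticulum, and were chosen by gene symbol from the 13289 genes of a liver count table, in which all 42 were found. The table covered livers of male mice of 24 strains from a chromosome substitution panel, in which an A/J chromosome replaces its counterpart in C57BL/6J (B6). The control was B6 (20 mice). The 8 single chromosome substitution strains (CSSs), of 7 or 8 mice each, were heterozygous for 1 A/J chromosome, namely (B6.A4 X B6)F1, (B6.A5 X B6)F1, (B6.A8 X B6)F1 and (B6.A10 X B6)F1 through the sire, and (B6 X B6.A3)F1, (B6 X B6.A6)F1, (B6 X B6.A14)F1 and (B6 X B6.A17)F1 through the dam. The 15 double CSSs, of 3 to 6 mice each, were heterozygous for 1 chromosome of each set, as in (B6.A8 X B6.A14)F1. All mice were 5 weeks old and had been fasted overnight, and the tissue was liver. Each substitution carries every A/J allele of a whole chromosome in the heterozygous state, so an effect cannot be assigned to a gene on it and recessive effects were not assayed.

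The endoplasmic reticulum folds and exports secreted and membrane proteins, and the hepatocyte, which makes most plasma proteins, carries a heavy load of them. Nascent chains enter through the Sec61 translocon, lose their signal peptide to the signal peptidase complex, fold with chaperones and disulfide isomerases, and leave in COPII vesicles, while misfolded chains are returned to the cytosol for degradation. When unfolded protein accumulates, the sensors Ern1 (IRE1 alpha), Eif2ak3 (PERK) and Atf6 start the unfolded protein response, in which spliced Xbp1 and cleaved Atf6 induce chaperone and degradation genes.

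Atf6 and Xbp1 are known to act through the endoplasmic reticulum stress element (ERSE), the letters CCAAT, then 9 bases of any kind, then CCACG, and through a shorter form, ERSE-II, the letters ATTGG, 1 base of any kind, then CCACG. Both strands were searched in RefSeq promoters (GRCm38.p6, 250 bases before to 50 bases after the start), which were given for 35 of the 42 genes. ERSE matched in 9 of the 35 genes (25.7%) and in 37 of all 27025 genes with a promoter (0.137%), and ERSE-II matched in 2 of the 35 (5.71%) and in 12 of all genes (0.0444%). A match is a description of letters and not a test of binding. The ERSE matches are shown because the 9 genes are chaperones, isomerases or degradation factors, with the fixed letters in capitals, written 5′ to 3′ on the strand of the match.

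Hspa5, chr2:34772025-34772043, gene strand: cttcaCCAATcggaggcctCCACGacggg
Calr, chr8:84847075-84847093, opposite strand: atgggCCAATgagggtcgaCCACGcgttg
Derl3, chr10:75893242-75893260, opposite strand: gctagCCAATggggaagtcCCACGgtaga
Hsp90b1, chr10:86705638-86705656, gene strand: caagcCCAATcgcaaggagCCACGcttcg
Hsp90b1, chr10:86705533-86705551, opposite strand: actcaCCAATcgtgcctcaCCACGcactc
Canx, chr11:50325800-50325818, gene strand: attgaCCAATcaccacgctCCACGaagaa
Pdia6, chr12:17266491-17266509, gene strand: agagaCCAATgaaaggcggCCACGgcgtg
Dnajc3, chr14:118937827-118937845, gene strand: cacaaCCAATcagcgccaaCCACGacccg
Creld2, chr15:88819520-88819538, opposite strand: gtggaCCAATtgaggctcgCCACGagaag
Syvn1, chr19:6046532-6046550, gene strand: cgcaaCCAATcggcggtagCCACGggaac

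The ERSE-II matches lay in the promoters of a chaperone cofactor and of a degradation factor.

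Herpud1, chr8:94386377-94386387, gene strand: cgctgATTGGgCCACGttgga
Dnajb11, chr16:22857852-22857862, gene strand: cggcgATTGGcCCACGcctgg

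The promoter of Hspa5, which encodes the central chaperone BiP, is given in full (chr2:34771840-34772139, plus strand, GRCm38.p6), with the letters of its ERSE match in capitals: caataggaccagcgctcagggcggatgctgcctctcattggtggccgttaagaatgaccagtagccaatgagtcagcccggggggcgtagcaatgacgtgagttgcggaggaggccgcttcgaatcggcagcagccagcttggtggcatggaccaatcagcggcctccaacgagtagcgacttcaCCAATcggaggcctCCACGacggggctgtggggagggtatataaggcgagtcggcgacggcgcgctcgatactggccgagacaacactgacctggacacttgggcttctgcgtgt. The matched element ended 46 bases before the start.

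In B6 liver the most abundant transcripts per length were P4hb, a disulfide isomerase, at 338 ± 39.3 CPM per kilobase of exon (SD, n = 20), Hsp90b1 (GRP94) at 185 ± 28.9, the lectin chaperone Calr at 162.9 ± 25.6 and Hspa5 at 155 ± 40.4. The least abundant were Derl3, a degradation factor, at 0.611 ± 0.416, Eif2ak3 at 2.31 ± 0.387 and Syvn1, the ubiquitin ligase HRD1, at 2.79 ± 0.554. CPM, the usual unit of RNA-seq, gives a gene's counts relative to its library's total, scaled here by the TMM method. The 3 lowest means were therefore far below the 4 highest, while Calr and Hspa5 did not differ beyond their spread. Derl3 reached 15 counts in 112 mice and the other 41 genes did so in every mouse, so its fold changes rest on few reads. A joint test of all 23 strain coefficients called 37 of the 42 genes (88.1%), beside 6825 of all 13289 genes (51.4%). Of the 13289 genes 11852 had 15 counts in at least 75% of the mice. Shares of called genes, here and below, were not matched for abundance.

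The libraries held 4638701 to 30465477 gene counts. The 7 hepatocyte markers, Alb among them, summed to 48722 to 150235 CPM, the 8 Kupffer cell markers to 240.4 to 656 CPM and the 4 measured markers of B and plasma cells to 1.80 to 12.9 CPM, while 1 of 14 exocrine pancreas markers, Cela1, was measured, at 3.03 to 11.4 CPM. Fewer cells of a type and less RNA per cell cannot be told apart in bulk tissue. The mouse E733 of (B6.A4 X B6.A14)F1 held 2.94 CPM over 4 Y-linked genes, while every other mouse held 228 to 432.0 CPM. It was left out of every value for this cross and stayed in the fit of the other effects. Its values lay below those of the other 4 mice for 27 of the 42 genes and above them for 1.

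A gene was called at a false discovery rate of 0.05, adjusted within each effect, separately for genes on a substituted chromosome (cis) and for the other genes (trans), over the 13289 genes of the table. An effect is named by its chromosomes, so that A8 is the difference of (B6.A8 X B6)F1 from B6 and A14:A8 is the departure of (B6.A8 X B6.A14)F1 from the sum of both single effects. Across the 8 main effects 69 of 336 gene tests were called (20.5%), 35 higher and 34 lower, beside 11.1% over all genes. Across the 15 interactions 70 of 630 were called (11.1%), 52 positive and 18 negative, beside 5.78%. Of the 42 genes, 32 were called in at least 1 main effect, 28 in at least 1 interaction and 6 in neither (Ern1, Hsp90b1, Manf, Canx, Pdia3 and Ssr1). The model held 5 surrogate variables, per mouse scores of variation that the strains do not account for, and with 10 in their place the totals were 15 and 23. With 0 surrogate variables the main effects had 21 higher and 43 lower calls and the interactions 84 positive and 20 negative, so the even split of the main effects depended on this number.

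**Figure D1:**
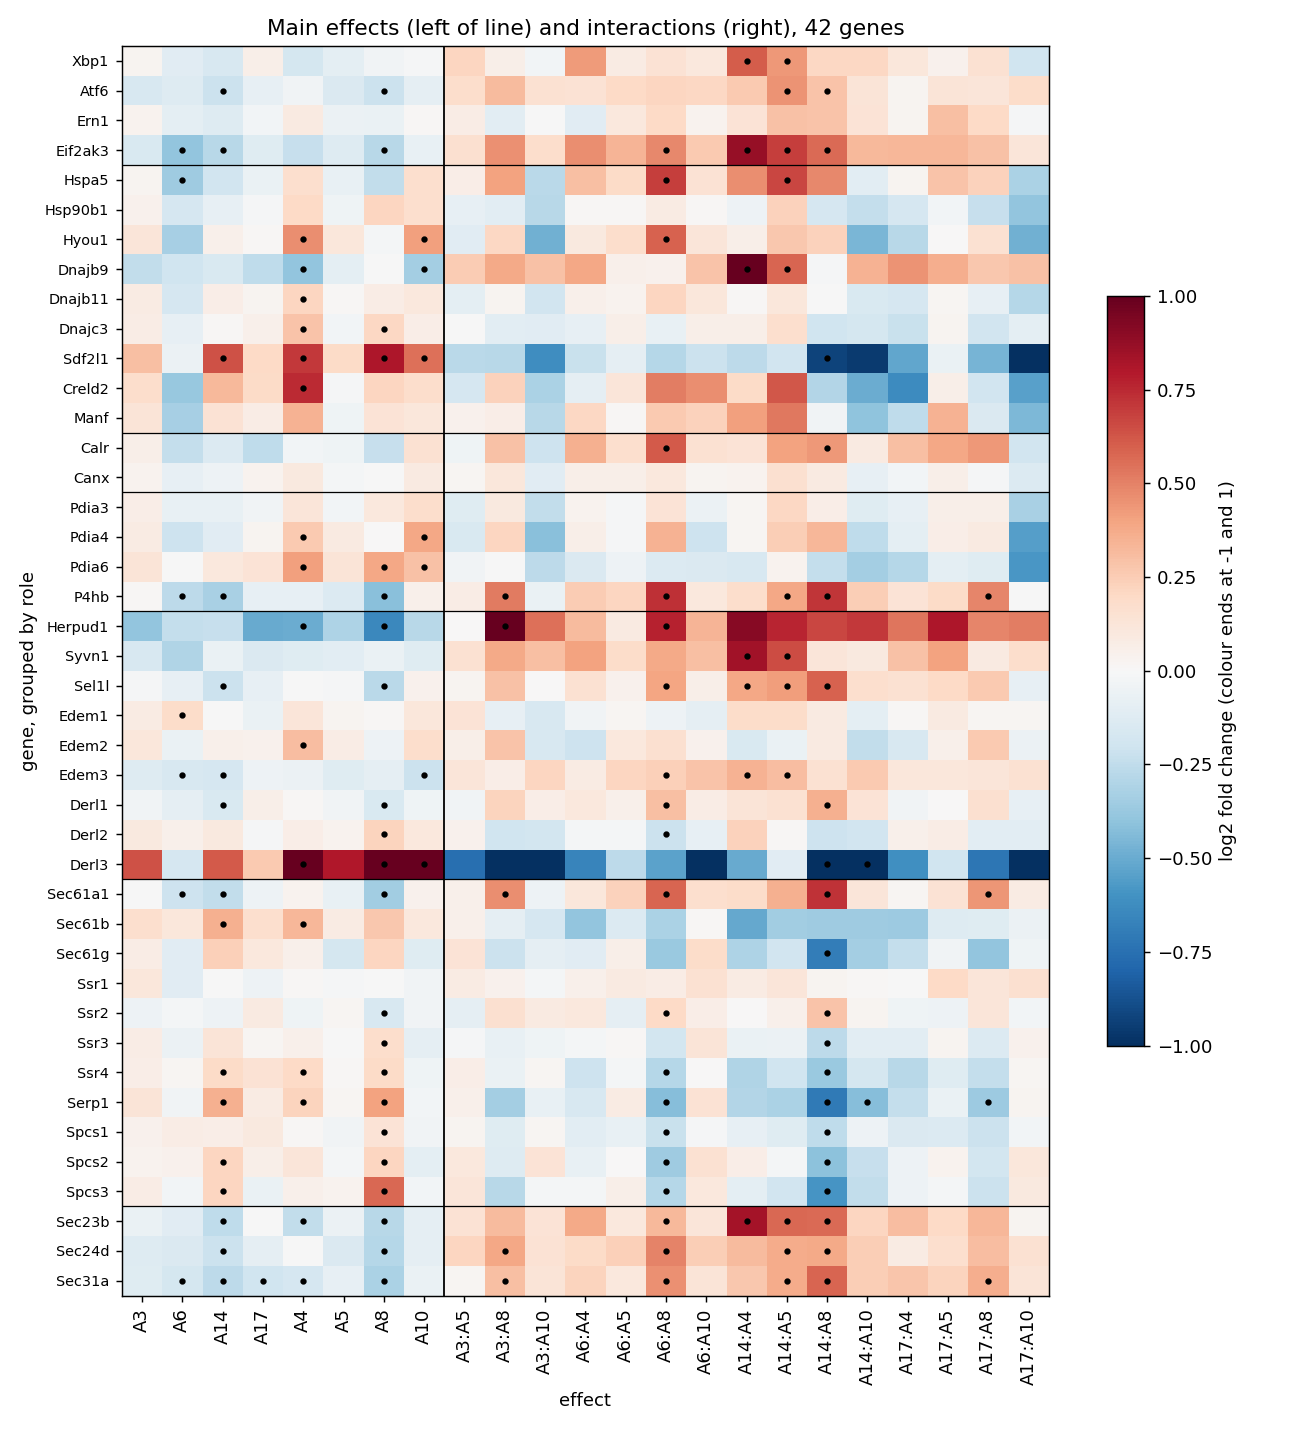
Log2 fold changes of the 42 genes (vertical axis, grouped by role) in 8 main effects and 15 interactions (horizontal axis). Red is higher, blue is lower and a dot marks a call at a false discovery rate of 0.05. The columns A8 and A14:A8 show opposite colours for most called genes, and both contain the same single CSS mice.

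**Figure D2:**
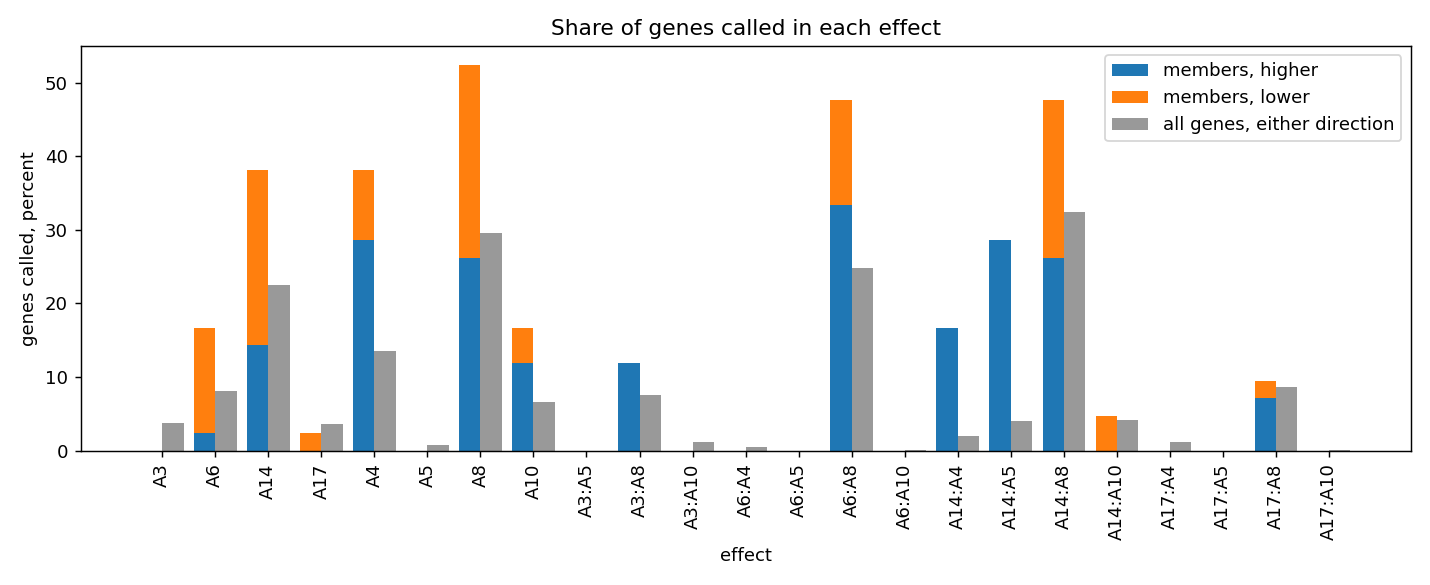
Percent of the 42 genes called (vertical axis, split into higher and lower) beside the percent of all 13289 genes called in either direction, for each effect (horizontal axis). The highest bars of the 42 genes are at A8, with 22 called, and at A6:A8 and A14:A8, with 20 each.

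Substitution of chromosome 8 held 22 calls, the highest count of the 8 main effects, 11 higher and 11 lower, beside 12.9% of all genes higher and 16.7% lower. It had 7 higher and 15 lower with 0 surrogate variables. All 3 COPII coat subunits fell, as did P4hb, the translocon channel subunit Sec61a1 and the translocon associated Ssr2. The degradation factors Herpud1, Sel1l and Derl1 and the sensors Atf6 and Eif2ak3 fell too. All 3 signal peptidase subunits, the translocon associated proteins Serp1, Ssr3 and Ssr4, the cochaperones Sdf2l1 and Dnajc3, and Pdia6 rose. The degradation factors Derl2 and Derl3 also rose, so of the 9 degradation genes 2 were higher and 3 lower. Of the 11 translocon and signal peptidase genes 6 rose, 2 fell and 3 were not called. Hspa5 was at a log2 fold change of -0.25 ± 0.13 (SE), adjusted p = 0.142 by edgeR's quasi-likelihood test.

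Spcs3, a signal peptidase subunit encoded on the substituted chromosome (chr8:54520433-54529998), gave the smallest p. Its level was 82.74 to 117.4 CPM in the 8 A8 mice (median 97.12) and 56.41 to 80.56 CPM in B6 (median 69.01), so every A8 mouse lay above every B6 mouse. The log2 fold change was 0.57 ± 0.06 (adjusted p = 2.47e-15). P4hb was at 531.4 to 804.7 CPM in A8 (median 660.6) and at 799.8 to 1189 CPM in B6 (median 952.2), so that the groups barely overlapped, with a log2 fold change of -0.42 ± 0.07 (adjusted p = 5.07e-07). Sec31a, the outer COPII coat, was at 63.35 to 83.93 CPM (median 71.53) against 77.74 to 112.7 CPM in B6 (median 94.13), with a log2 fold change of -0.32 ± 0.06 (adjusted p = 4.53e-06). The Sec61-associated Serp1 was at 258.5 to 357.1 CPM against 200.6 to 291.1 CPM, overlapping, with a log2 fold change of 0.40 ± 0.08 (adjusted p = 1.72e-05). Derl3 was at a log2 fold change of 1.67 ± 0.38 (adjusted p = 0.000324), from 1.148 to 6.369 CPM against 0 to 3.265 CPM.

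Sec61a1 was at 63.77 to 100.5 CPM in A8 and at 88.94 to 193 CPM in B6, and Sec23b, an inner COPII subunit, at 18.15 to 26.02 against 23.48 to 45.04 CPM. Eif2ak3 was at 10.29 to 14.28 against 10.37 to 17.75 CPM. The ranges overlapped for each of these 3 genes. The share of counts from mitochondrially encoded genes was 9.42 to 20.8% in A8 (median 14.6%) and 9.31 to 18.5% in A14 (median 13.6%). It was 6.77 to 11.6% in B6 (median 8.53%). In A6 it was 8.30 to 17.1% (median 9.54%) and in A17 8.16 to 15.3% (median 9.56%). The slope of log2 CPM on transcript GC content, per 10 percentage points and relative to the B6 mean, was -0.264 to -0.112 in A8 and -0.152 to 0.0878 in B6. Of the 7 hepatocyte markers 6 were lower in A8 and 5 in A14. The part of these measures in the result was not tested.

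Substitution of chromosome 14 raised 6 of the genes and lowered 10, beside 9.98% and 12.6% of all genes, and with 0 surrogate variables 3 were higher and 15 lower. The 3 COPII subunits fell here too, with P4hb at -0.33 ± 0.06 (adjusted p = 4.24e-05), Sec31a at -0.26 ± 0.05 (8.63e-05) and Derl1 at -0.15 ± 0.04 (0.00505). Serp1 rose by 0.35 ± 0.07 (8.27e-05) and Spcs3 by 0.21 ± 0.05 (0.00194). P4hb was at 610.8 to 878.1 CPM in the 8 A14 mice, overlapping B6 in part. The 2 substitutions were not tested against each other, and both were compared with the same B6 mice. With 10 surrogate variables the call counts were 1 for A14 and 6 for A8, and with the filter of 15 counts in 75% of the mice A14 had 10.

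Substitution of chromosome 6 raised 1 gene and lowered 6, beside 4.3% and 3.79% of all genes. Eif2ak3, encoded on chromosome 6 (chr6:70844515-70905245), was at 9.386 to 12.67 CPM in the 8 A6 mice and at 10.37 to 17.75 CPM in B6, with a log2 fold change of -0.39 ± 0.08 (adjusted p = 0.000216). P4hb fell by 0.26 ± 0.06 on the log2 scale (0.00327), and Sec31a by 0.18 ± 0.05 (0.0195). Edem3, a mannosidase-like degradation factor, fell by 0.16 ± 0.05 (0.0384), and Edem1, of the same family and encoded on chromosome 6, rose by 0.19 ± 0.06 (0.0156). Hspa5 was among the lower genes, at 356 to 599.5 CPM (median 490.5) against 407.8 to 1192 CPM in B6 (median 601), with a log2 fold change of -0.35 ± 0.12 (adjusted p = 0.0421), and the ranges overlapped. With 10 surrogate variables 2 genes were called.

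Edem1 was also the single gene of the 42 called against B6 in 3 double CSSs that carry chromosome 6. It was at 168.5, 186.2, 188.9, 197.9 and 199.5 CPM in A6:A4, at 158.1, 193.3, 196.1 and 200.3 CPM in A6:A5 and at 169.9, 171.3, 172.5, 179 and 215.4 CPM in A6:A10, against 121.9 to 199.4 CPM in B6 (median 153.6). Most of these mice lay in the upper part of the B6 range. The log2 fold change against B6 was 0.27 ± 0.07 in A6:A4 (adjusted p = 0.00242), beside 2.78% of all genes higher and 2.04% lower, 0.23 ± 0.07 in A6:A5 (0.0323), beside 1.47% and 0.956%, and 0.22 ± 0.07 in A6:A10 (0.0386), beside 0.594% and 0.384%. In A6:A8 it was 0.15 ± 0.07 (0.165). Its interaction was called in none of these 4 crosses, with values of -0.09 to 0.02.

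**Figure D3:**
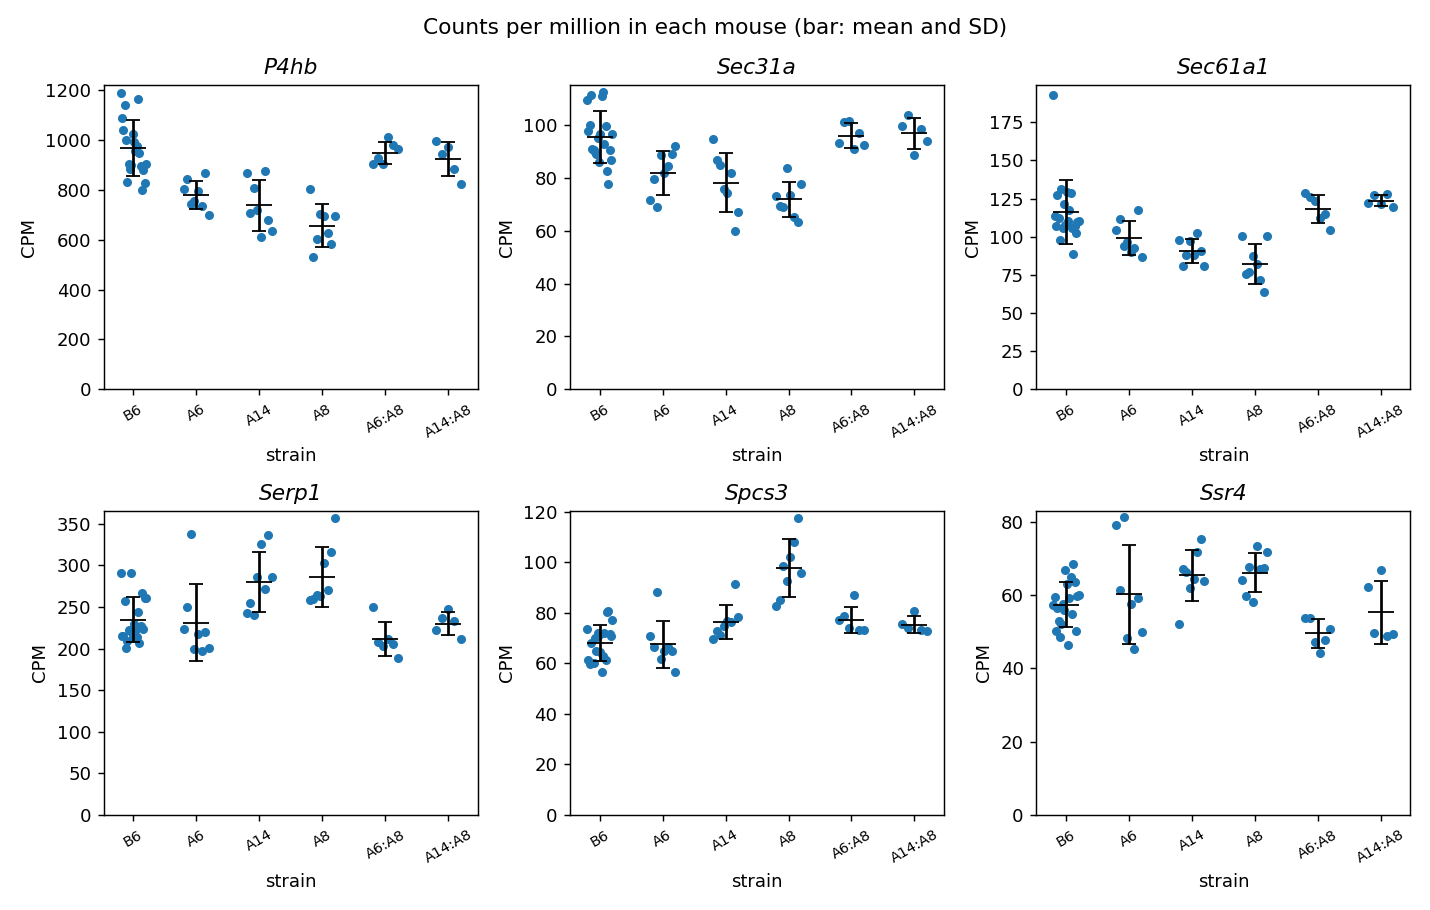
CPM (vertical axis) of 6 genes in each mouse of B6, 3 single CSSs and 2 double CSSs (horizontal axis), where each point is a mouse and the bar gives the mean and SD. P4hb, Sec31a and Sec61a1 are low and Serp1, Spcs3 and Ssr4 high in A8, while A6:A8 and A14:A8 mice lie nearer to B6.

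Substitution of chromosome 4 raised 12 of the genes and lowered 4, beside 7.6% and 5.88% of all genes, and the higher genes included 5 of the 9 lumenal chaperones and cochaperones and 2 of the 4 disulfide isomerases. The cochaperone Creld2 was at 16.4 to 41.5 CPM in the 8 A4 mice (median 23.2) and 9.505 to 33.48 CPM in B6 (median 15.7), an overlap, with a log2 fold change of 0.75 ± 0.18 (adjusted p = 0.00229). Sdf2l1, a cochaperone of Hspa5, was at 0.71 ± 0.18 (0.00369), Pdia6 at 0.41 ± 0.09 (0.0018), Dnajc3 at 0.29 ± 0.07 (0.00128) and Edem2, a degradation mannosidase, at 0.31 ± 0.07 (0.000611). Hspa5 itself was at 0.17 ± 0.12 (0.364). Of the 11 genes with either promoter element 5 were higher and 1 was lower in A4. Their median log2 fold change there was 0.20, and 0.05 for the other 31 of the 42 genes. Those 31 include the genes without a given promoter, Hyou1 and Manf among them, which were not searched. They are therefore not a set known to lack the elements. In A8 3 of the 11 genes with an element were higher and 1 lower, beside 12.9% and 16.7% of all genes. In A10 2 were higher and 0 lower, beside 3.66% and 2.97%, and in A6 0 and 1, beside 4.3% and 3.79%. In A14 0 were called, beside 9.98% and 12.6%, as in A17 (1.71% and 1.96%), A3 (3.7%) and A5 (0.768%). In the 15 interactions 0 to 3 of these 11 genes were positive and 0 or 1 negative. The 3 positive in A6:A8 stood beside 13.4% of all genes, and the 2 in A14:A5 beside 2.49%. In A4 Dnajb9 (ERdj4), Herpud1, Sec23b and Sec31a fell. With 0 surrogate variables 4 genes were higher and 1 lower, and with 10 the single call was lower, so the count depended on the number of surrogate variables.

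Chromosome 10 raised 5 genes and lowered 2, beside 3.66% and 2.97% of all genes. The balance turned with 0 surrogate variables, to 1 higher and 4 lower, and with the stricter count filter it was 2 and 2. Derl3, encoded on chromosome 10, was at 0.6353 to 7.237 CPM, a log2 fold change of 1.53 ± 0.36 (adjusted p = 0.0012), Pdia4 at 0.39 ± 0.09 (0.00627), the large chaperone Hyou1 at 0.41 ± 0.13 (0.0405), Edem3 at -0.21 ± 0.06 (0.0114) and Dnajb9 at -0.34 ± 0.10 (0.0297). Derl3, Pdia4 and Hyou1 each lay above the B6 median in 5 of the 8 A10 mice, and Edem3 and Dnajb9 in 0. Each of these genes overlapped B6. Chromosome 17 lowered Sec31a alone, by 0.20 ± 0.05 on the log2 scale (0.0237), beside 1.71% of all genes higher and 1.96% lower. There were 5 higher and 1 lower with 0 surrogate variables, and with 10 or with the stricter count filter there were 0. By edgeR none of the 42 genes was called for chromosome 3 (3.7% of all genes) or chromosome 5 (0.768%), where 8 and 5 of them had an unadjusted p under 0.05, and DESeq2's Wald test also called 0.

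P4hb, Sec31a, Sec61a1, Serp1 and Spcs3 had interactions opposite in sign to the A8 effect where they were called in the crosses with chromosome 8. A14:A8 held 20 called genes, 11 positive and 9 negative, beside 18.1% and 14.3% of all genes, and A6:A8 held 14 positive and 6 negative, beside 13.4% and 11.4%. The cross with chromosome 3, A3:A8, held 5 positive, beside 4.91% positive and 2.66% negative. The cross with chromosome 17, A17:A8, held 3 positive and 1 negative, beside 4.95% and 3.73%. P4hb, Sec61a1 and Sec31a were called in all 4 crosses with chromosome 8. The 4 interactions and the A8 effect contain the same 8 single CSS mice, so they are not independent.

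P4hb was at 825.7, 884.8, 945.1, 971 and 997.6 CPM in the 5 A14:A8 mice, above all 8 A8 mice and within the range of B6. Its interaction was 0.72 ± 0.11 in A14:A8 (adjusted p = 3.85e-08), 0.73 ± 0.10 in A6:A8 (7.02e-08), 0.52 ± 0.12 in A3:A8 (0.00278) and 0.49 ± 0.11 in A17:A8 (0.00209). Sec31a was at 88.75, 93.99, 98.48, 99.94 and 104 CPM in A14:A8, with an interaction of 0.58 ± 0.09 there (7.65e-08), 0.30 ± 0.10 in A3:A8 (0.0376), 0.46 ± 0.08 in A6:A8 (1.71e-05) and 0.36 ± 0.09 in A17:A8 (0.00541). Sec61a1 was at 119.6, 121.3, 122.4, 127.2 and 128 CPM in A14:A8, all above the A8 mice, with interactions of 0.73 ± 0.13 (3.19e-06), 0.58 ± 0.12 in A6:A8 (0.000163), 0.47 ± 0.14 in A3:A8 (0.0261) and 0.44 ± 0.13 in A17:A8 (0.0212).

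Among the genes higher in A8, Serp1 and Spcs3 had negative interactions, while Dnajc3 and Pdia6 were called in no interaction. Serp1 was at 211.1, 222.6, 233.3, 236.2 and 247.4 CPM in A14:A8, below all 8 A8 mice, with an interaction of -0.70 ± 0.13 (2.67e-06), and -0.37 ± 0.12 in A17:A8 (0.0458). Spcs3 was at 72.89, 73.12, 73.83, 75.58 and 80.88 CPM in A14:A8, with an interaction of -0.59 ± 0.09 (2.45e-07). Of the 11 translocon and signal peptidase genes 7 were negative, 2 positive and 2 not called in A14:A8. All 3 COPII subunits were positive in A14:A8 and in A6:A8. Sec24d, an inner COPII subunit, was at 0.50 ± 0.11 in A6:A8 (0.000339) and 0.39 ± 0.13 in A3:A8 (0.0486), and Derl1 at 0.30 ± 0.07 in A6:A8 (0.000423). Herpud1, encoded on chromosome 8, was at 349.1, 510.2 and 564.5 CPM in the 3 A3:A8 mice, against 171.9 to 266.8 CPM in A8, and its interaction of 1.52 ± 0.30 (0.000383) was the largest of that cross.

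Against B6, Spcs3 was the single called gene in A14:A8, at 0.20 ± 0.06 (adjusted p = 0.0175), beside 2.62% of all genes higher and 2.2% lower, and in A6:A8, at 0.27 ± 0.06 (0.00082), beside 1.45% and 0.798%. A3:A8 had 4 higher (Spcs3, Pdia6, Edem2 and Sdf2l1), beside 1.14% higher and 0.737% lower. A17:A8 had Spcs3, Pdia6 and Edem2 higher and Herpud1 lower, at -0.66 ± 0.20 (0.0124), beside 3.34% and 2.72%. The mitochondrial share was 6.90 to 9.58% in A14:A8 and 7.47 to 8.47% in A6:A8, and the GC slope in A14:A8 was -0.00487 to 0.0874, so both lay near B6 and not near A8. The hepatocyte markers had positive interactions for 4 of 7 in A14:A8 (median 0.65), 4 in A6:A8 (0.34), 3 in A3:A8 (0.42) and 1 in A17:A8 (0.32), and none was negative. Cela1, the only 1 of 14 exocrine pancreas markers that was measured, was higher in A8. It had a negative interaction in all 4 crosses (-1.13, -0.75, -0.81 and -0.96 in the same order). The part of these measures in the interactions was not tested. With 10 surrogate variables the calls fell to 8 for A14:A8, to 5 for A6:A8, to 1 for A3:A8 and to 0 for A17:A8. With 0 of them A3:A8 had 11 and A17:A8 had 14. Without mouse 3 of (B6.A8 X B6.A3)F1 the calls of A3:A8 numbered 2, and without mouse 1 they numbered 10.

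In the crosses of chromosome 14 with chromosomes 4 and 5 every called interaction of the 42 genes was positive. A14:A4 held 7 positive and 0 negative calls, beside 1.16% and 0.775% of all genes, and A14:A5 held 12 positive and 0 negative, beside 2.49% and 1.55%. The 7 genes of A14:A4, Xbp1, Eif2ak3, Dnajb9, Syvn1, Sel1l, Edem3 and Sec23b, were among the 12 of A14:A5, and both crosses share the 8 A14 mice. The 12 were called with the mouse E733 in the fit, and without it A14:A5 had 9. With the mouse E733 kept, A14:A4 had 8 positive and 1 negative, and with 0 surrogate variables it had 12 positive. Of the 7 hepatocyte markers 0 were called in A14:A4 (median 0.24) and 2 were positive in A14:A5 (median 0.39). Of the 7 sinusoidal endothelial markers 2 were negative in A14:A4 and 3 in A14:A5, and Cela1 was at -0.72, not called, in A14:A4 and called at -0.84 in A14:A5. Their part in these interactions was not tested. No gene of the 42 was called in the main effect of chromosome 5.

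Dnajb9, a cochaperone that is a known Xbp1 target, was at 49.98, 50.2, 52.4 and 70.26 CPM in A14:A4, against 27.24 to 54.19 CPM in B6 (median 36.03) and 24.14 to 33.45 CPM in A4. Of the A14:A4 mice 1 lay above all B6 mice and 3 lay within the upper part of the B6 range. The interaction was 1.17 ± 0.18 (adjusted p = 5.97e-06) and the difference from B6 was 0.61 ± 0.12 (0.00024). Sec23b was at 31.27, 37.87, 42.29 and 44.5 CPM, against 23.48 to 45.04 CPM in B6, with an interaction of 0.83 ± 0.13 (1.79e-05). Eif2ak3 was at 15.12, 18, 19.5 and 20.66 CPM, against 10.37 to 17.75 CPM in B6, with an interaction of 0.87 ± 0.15 (0.000221). Xbp1 was at 131.8, 142.3, 153.8 and 222 CPM, against 105.2 to 156.5 CPM in B6, with an interaction of 0.60 ± 0.13 (0.00381). Syvn1 was at 18.75, 21.5, 21.71 and 27.66 CPM, against 9.695 to 22.04 CPM in B6, with an interaction of 0.84 ± 0.19 (0.0071).

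In A14:A5 the interaction of Eif2ak3 was 0.69 ± 0.15 (adjusted p = 0.00381), with 14.98, 15.46, 16.34, 18.38 and 19.35 CPM in the 5 mice. Sec23b was at 31.19, 32.42, 35.9, 39.5 and 41.44 CPM (0.57 ± 0.13, 0.00437). Atf6 was at 0.45 ± 0.10 (0.00596), Sec31a at 0.37 ± 0.09 (0.00847) and Sel1l at 0.42 ± 0.11 (0.0119). Hspa5 was at 709.6, 811.6, 830.6, 888.2 and 1466 CPM, with an interaction of 0.67 ± 0.20 (0.0386) that rested on the highest mouse: without replicate 3 of (B6.A5 X B6.A14)F1 it was 0.43 (adjusted p = 0.223) and the calls numbered 7. With 10 surrogate variables A14:A5 had 3 calls.

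**Figure D4:**
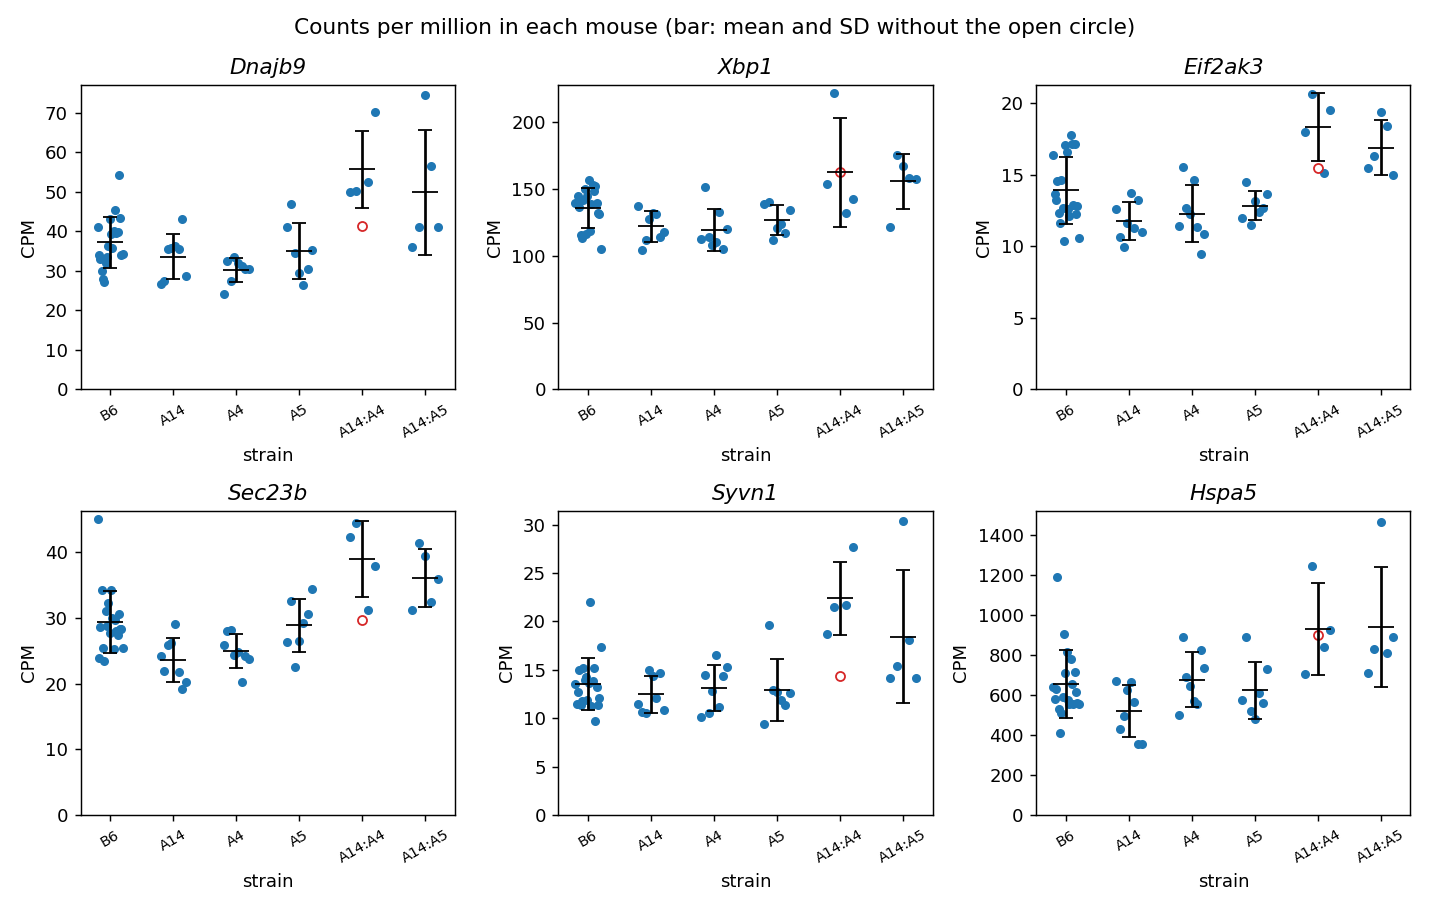
CPM (vertical axis) of 6 genes in each mouse of B6, 3 single CSSs and 2 double CSSs (horizontal axis), with the mean and SD, and the left out mouse as an open circle. The 4 other A14:A4 mice lie above the A14 and A4 mice for Dnajb9 and Syvn1.

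Against B6, A14:A4 had the highest count of called genes of the 15 double CSSs, 18 higher and 0 lower, beside 4.68% and 4.67% of all genes. The cochaperones Creld2 and Sdf2l1 were at 1.27 ± 0.22 (adjusted p = 2.4e-05) and 1.07 ± 0.21 (0.00033), Manf, a secreted stress factor, at 0.88 ± 0.18 (0.000478) and Hspa5 at 0.48 ± 0.14 (0.0205). Creld2 was at 26.54, 29.71, 56.15 and 63.29 CPM, against 9.505 to 33.48 CPM in B6. The interaction of Creld2 in this cross was 0.19 ± 0.33 (0.83) and that of Manf 0.41 ± 0.28 (0.455), so their rise against B6 was not called as a departure from the sum. A14:A5 had 3 higher against B6 (Creld2, Manf and Syvn1), beside 0.993% and 0.534%, and A3:A5 had 5 higher and 2 lower, beside 6.63% and 6.9%, with Spcs3 at 0.23 ± 0.06 (0.00621) and Herpud1 at -0.70 ± 0.20 (0.00966). The comparisons with B6 were made in 1 setting.

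The other crosses held few calls. A14:A10 held 2 negative calls, beside 2.45% of all genes positive and 1.72% negative: Serp1 at -0.42 ± 0.13 (adjusted p = 0.0377) and Derl3 at -2.13 ± 0.66 (0.0444). Leaving out replicate 2 or replicate 5 of (B6.A10 X B6.A14)F1 left 0 calls, and leaving out replicate 1 left 1. With 0 surrogate variables this cross had 6 positive and 0 negative calls, the opposite direction, and with 10 or with the stricter count filter it had 0. By edgeR none of the 42 was called in A3:A5 (0.0% of all genes), A3:A10 (1.17%), A6:A4 (0.542%), A6:A5 (0.0%), A6:A10 (0.0527%), A17:A4 (1.21%), A17:A5 (0.0%) or A17:A10 (0.113%). Of the 42 genes 0 to 10 had an unadjusted p under 0.05 in these 8 crosses, and DESeq2's Wald test called 1 in A6:A4 and A17:A10 each and 0 elsewhere.

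Hspa5 had the lowest single CSS median in A8, at 458 CPM (308.9 to 599.7), and the highest in A4, at 667.8 CPM (498.6 to 891.3), against 601 CPM in B6, and all 3 ranges overlapped. In A6:A8 it was at 466.7, 539.6, 579, 677.8, 693 and 748.2 CPM, with an interaction of 0.69 ± 0.19 (adjusted p = 0.00476), and in A14:A8 at 558.2 to 673.2 CPM, with 0.48 ± 0.20 (0.0583). Xbp1 was called in no main effect, with medians from 113.4 CPM in A4 to 146.9 CPM in A17. Its values in A14:A5 were 121.4, 157.4, 157.9, 167 and 175.4 CPM, with an interaction of 0.43 ± 0.12 (0.0246), and 4 of these 5 mice lay above all B6 mice. In A6:A4, where 1 mouse at 195.2 CPM stood above the other 4, it was 0.42 ± 0.11 (0.0555).

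Ern1 was called in none of the 23 effects. It was at 22.29 to 42.86 CPM in B6 (median 29.05), 25.46 to 36.62 CPM in A8 and 21.5 to 30.45 CPM in A14. Its interactions were 0.29 ± 0.14 in A14:A8 (adjusted p = 0.0993) and 0.30 ± 0.14 in A14:A5 (0.203).

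Of 83 other listed genes of the secretory pathway 81 were measured. In A8 10 of them rose and 33 fell, beside 12.9% and 16.7% of all genes, with a median log2 fold change of -0.12 against -0.01 over all genes. The interaction A14:A8 was positive for 35 and negative for 11, beside 18.1% and 14.3%, with a median of 0.18 against 0.02, and A6:A8 for 33 and 11, beside 13.4% and 11.4%, with a median of 0.19 against 0.02. Of the 11 oligosaccharyltransferase genes, which attach N-glycans, 1 rose and 6 fell in A8. Rpn2 was at -0.42 ± 0.07 (adjusted p = 4.99e-07) and Ost4 at 0.41 ± 0.08 (1.95e-05). Of the 10 signal recognition particle and receptor genes 3 rose and 3 fell, with Srp9 at 0.41 ± 0.07 (4.8e-07) and Srp68 at -0.34 ± 0.08 (0.000249). Of the 17 further COPII and cargo receptor genes 2 rose and 8 fell, with the COPII GTPase Sar1b at 0.44 ± 0.06 (9.78e-09) and Sec24c at -0.39 ± 0.08 (5.65e-05). Of the 19 folding and glycan processing genes 2 rose and 9 fell, with both glucosidase II subunits lower, Prkcsh at -0.47 ± 0.07 (3.31e-08) and Ganab at -0.46 ± 0.06 (1.71e-08). Of the 14 further degradation genes 1 rose and 5 fell, with the lectin Os9 at -0.58 ± 0.07 (5.23e-10) and Ufm1 at 0.35 ± 0.06 (1.17e-06). Of the 10 further sensors and processing proteases 1 rose and 2 fell, with Creb3l3 at -0.32 ± 0.07 (0.000148) and Nfe2l1 at -0.23 ± 0.07 (0.00616).

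A14:A8 and A6:A8 tied at 20 of the 42 genes, and the same rule was applied to both. In A14:A8 Os9 was at 0.97 ± 0.11 (adjusted p = 1.55e-11), the degradation ATPase Vcp at 0.76 ± 0.11 (9.84e-09), Ganab at 0.81 ± 0.10 (1.32e-10) and Prkcsh at 0.71 ± 0.11 (5.44e-08). Rpn2 and Ost4 were at 0.70 ± 0.11 (9.63e-08) and -0.65 ± 0.13 (2.16e-05), and Sec24c and Sar1b at 0.62 ± 0.12 (2.99e-05) and -0.75 ± 0.10 (7.6e-10). Srp68 was at 0.61 ± 0.12 (2.68e-05), Srp9 at -0.67 ± 0.11 (3.34e-07), Creb3l2 at 0.73 ± 0.21 (0.00324) and Ppp1r15a at -0.66 ± 0.20 (0.00596). In A6:A8 Os9 was at 0.89 ± 0.11 (2.09e-09), Prkcsh at 0.72 ± 0.10 (1.19e-07), Rpn2 at 0.61 ± 0.10 (2.79e-06), Sec24c at 0.60 ± 0.12 (4.83e-05), Srp68 at 0.40 ± 0.11 (0.00501), Sar1b at -0.67 ± 0.09 (6.23e-08), Ost4 at -0.61 ± 0.12 (5.3e-05), Srp9 at -0.59 ± 0.10 (6.14e-06) and Ufm1 at -0.48 ± 0.09 (2.31e-05). Each of these 9 genes had in A8 the opposite sign. The A8 effect and this interaction contain the same A8 mice, so the 2 values are not independent. An opposite sign is favoured by that design and is not separate evidence. Pdia5 was at 0.63 ± 0.16 (0.00127), Creb3l2 at 0.57 ± 0.19 (0.0217) and Creb3l3, also opposite to its A8 value, at 0.54 ± 0.10 (4.37e-05).

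In A14:A4 7 of the 81 genes were positive and 0 negative, beside 1.16% and 0.775% of all genes, with a median of 0.08 against 0.00 over all genes. In A14:A5 7 were positive and 2 negative, beside 2.49% and 1.55%. Creb3l2, a membrane bound transcription factor related to Atf6, was at 1.19 ± 0.22 in A14:A4 (adjusted p = 0.000355) and 0.94 ± 0.21 in A14:A5 (0.00436). Ddit3 (CHOP), a transcription factor of the PERK branch, was at 0.99 ± 0.26 in A14:A4 (0.0248). These 2 genes were chosen after their values were seen. They were the only 2 called of the 10 further sensors and processing proteases in A14:A4. Of those 10 genes 4 were above 0 there, with a median of -0.02, so the list did not rise as a whole.

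Among the 20 B6 mice, which share 1 genotype, Hspa5 varied from 408 to 1192 CPM. Its level went with that of other chaperones: Pearson r of log2 CPM was 0.91 with Manf, 0.88 with Creld2, 0.87 with Hsp90b1, 0.86 with Dnajb11 and 0.80 with Dnajc3, and Spearman rho was 0.768, 0.830, 0.785, 0.817 and 0.830. The 5 genes of the whole table with the highest r were Manf, Creld2, Hsp90b1, Dnajb11 and Magt1 (0.82), an oligosaccharyltransferase gene. Of 41 genes tested, 21 were called by 100000 two-sided permutations (adjusted p under 0.05 over the 41) with r and 24 with rho, and p = 1e-05 was the smallest they could give. An r of 0.7 or more was reached by 9 of the 41 and by 19 of the 13288 genes other than Hspa5. The B6 libraries held 6752637 to 25630807 counts. All genes of a mouse share its depth and handling, which were not separated from these values.

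The mouse with the lowest Hspa5, at 408 CPM, had 9.505 CPM of Creld2 and 23.78 of Manf, and the mouse with the highest, at 1192 CPM, had 33.48 and 85.08. Without the 2 mice farthest from the median, the r was 0.86 for Manf, 0.86 for Creld2, 0.71 for Hsp90b1, 0.77 for Dnajb11 and 0.72 for Dnajc3. Xbp1 had r = 0.29 (permutation adjusted p = 0.294) and rho = 0.36, and r = 0.63 without the same 2 mice, so its value depended on them. Dnajb9 went from 0.28 to 0.75 in the same way. Ern1 had r = -0.04 (permutation adjusted p = 0.9).

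**Figure D5:**
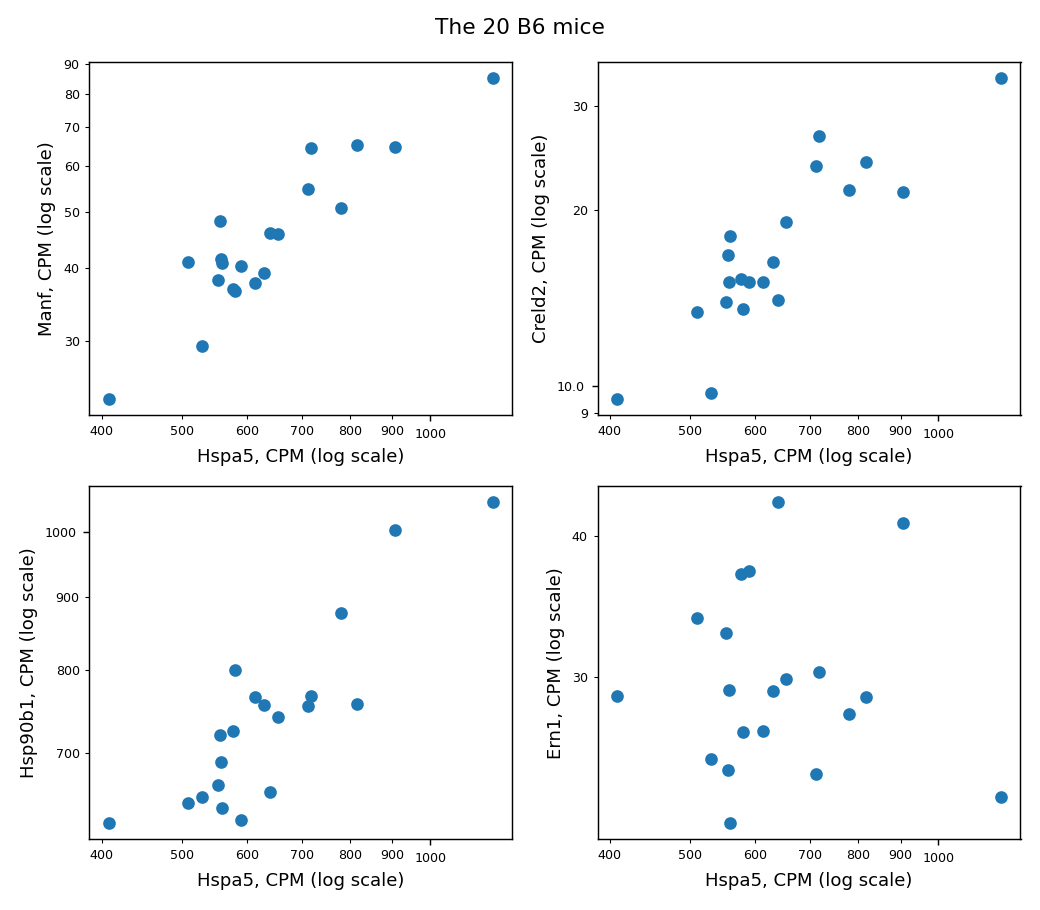
CPM of Manf, Creld2, Hsp90b1 and Ern1 (vertical axes, log scale) against Hspa5 (horizontal axes, log scale) in the 20 B6 mice, where each point is a mouse. Manf, Creld2 and Hsp90b1 rise with Hspa5, and the points for Ern1 show no slope (r = -0.04).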

How the data were processed

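Liver RNA from 154 mice was sequenced and the authors deposited raw counts per gene; the submitters' processing notes name TopHat2, HTSeq and edgeR with mm10. The deposited counts were read as they were, with 13289 genes and 0 columns that matched no sample, and groups came from the strain labels. The flow cell of each library was not given in the sources used here. Counts were fitted with edgeR 4.0.16 (quasi-likelihood test, TMM, legacy=TRUE) in R 4.3.3, on 8 main effect terms, 15 interaction terms and the 5 surrogate variables that sva 3.50.0 gave. Adjustment was by Benjamini-Hochberg within cis and trans genes of each effect at 0.05, over all genes; the SE is the log2 fold change over the root of F. A14:A4 was fitted without mouse E733, in its alternatives too, while the joint test of all strain coefficients held this mouse. CPM used TMM, and log2 CPM a prior count of 2. Gene positions and transcripts came from GENCODE M21 on mm10. The fit was tested on simulated data with log2 fold changes of 1 planted in A8 and 1.5 in A14:A8. All 100 changed genes of each effect were recovered. The simulated counts held no hidden variation and many effects given here are smaller, so the simulation does not show how well those are found. The members and lists were chosen with earlier results of these data known. In each effect the 5 called genes with the smallest adjusted p were given in full; per-mouse values were given for the 6 genes called in most effects and for Hspa5, Xbp1 and Ern1, and other genes were named after their values were seen. Alternatives were 0 and 10 surrogate variables, DESeq2 1.42.0 size factors and its Wald test, a filter of 15 counts in 75% of mice, legacy=FALSE, adjustment over all genes together, and leaving out mice. The mice of a strain were separate animals, and p-values rest on the spread between animals that the surrogate variables left, estimated over all strains together. Litter and breeding cage were not in the model, so mice that share them were treated as independent.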

Additional observations from a re-analysis of the deposited data

Results flagged for a closer look

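Mice far from the rest of their strain. For the 6 genes called in the most effects and for Hspa5, Xbp1 and Ern1, 198 groups of 4 to 10 mice were tested for 1 mouse far from the others, and 8 had one, where chance gives about 1 in 20. In (B6.A5 X B6.A3)F1 the mouse E242 was the lowest for 3 genes, with Sec31a at 65.74 CPM (nearest mouse 86.98), Sec23b at 21.37 CPM (31.33) and Sec61a1 at 76.83 CPM (122.5). In (B6.A4 X B6.A6)F1 the mouse E642 was the highest for P4hb, at 1013 CPM (882.6), and for Xbp1, at 195.2 CPM (140.6). In (B6.A5 X B6.A6)F1 the mouse E73 was the lowest for Sec31a, at 77.39 CPM (89.02). In (B6 X B6.A6)F1 the mouse E165 was the highest for Serp1, at 337.5 CPM (250.2). In (B6.A5 X B6.A17)F1 the mouse E270 was the highest for Xbp1, at 149.1 CPM (134.6).

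Substitution effects that differed with the second chromosome, by the test of the interaction itself. The number of the 42 genes with a called interaction was 5 in A3:A8 (4.91% of all genes positive and 2.66% negative), 20 in A6:A8 (13.4% and 11.4%), 7 in A14:A4 (1.16% and 0.775%), 12 in A14:A5 (2.49% and 1.55%), 20 in A14:A8 (18.1% and 14.3%), 2 in A14:A10 (2.45% and 1.72%) and 4 in A17:A8 (4.95% and 3.73%).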

How the results depend on the processing

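No paired analysis was possible because the replicate numbers only name the mice of a strain in accession order. None of the 26 named main effects and 31 named interactions changed sign in the alternatives run for it, and the stricter count filter gave a value for 24 and 30 of them. DESeq2's size factors, its Wald test, legacy=FALSE and adjustment over all genes together left each count of an effect with calls within 1.5 times its value. With 10 surrogate variables in place of 5 the calls over the main effects fell from 69 to 15, over the interactions from 70 to 23 and over the wider lists from 254 to 67. By effect the counts were then 2 in A6, 1 in A14, 0 in A17, 1 in A4, 6 in A8, 4 in A10, 1 in A3:A8, 5 in A6:A8, 3 in A14:A5, 8 in A14:A8, 0 in A14:A10 and 0 in A17:A8. With 0 surrogate variables they were 6 in A17, 5 in A4, 11 in A3:A8, 12 in A14:A4, 6 in A14:A10 and 14 in A17:A8. With 15 counts required in 75% of the mice they were 10 in A14, 0 in A17, 4 in A10, 12 in A6:A8, 13 in A14:A8 and 0 in A14:A10. For these 3 settings, counts that stayed within 1.5 times their value are not listed. Without the mouse E733 the counts were 3 in A3:A8, 1 in A14:A10, 5 in A6 and 9 in A14:A5. They were 17 in A6:A8, 18 in A14:A8, 3 in A17:A8, 23 in A8 and 6 in A10. Leaving out each mouse of the double CSS gave 2 to 10 in A3:A8, 16 to 19 in A6:A8, 5 to 7 in A14:A4, 7 to 12 in A14:A5, 17 to 21 in A14:A8, 0 to 3 in A14:A10 and 3 to 4 in A17:A8. With 0 surrogate variables the balance of higher against lower calls turned in A10, A17 and A14:A10 and moved toward lower calls in A8 and A14. The cause was not tested. Of the 26 named main effects 17 lost their call with 10 surrogate variables and 5 with 0. Of the 31 named interactions 14 and 2 did, and 7 lost it when at least 1 mouse was left out. The median over all genes of an effect moved by at most 0.0324 on the log2 scale. No alternative was run for the double CSSs against B6. Depth limits mostly Derl3, which fell under 15 counts in some mice, and the 3 mice of A3:A8 limit that cross.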
